A study of Mus musculus with 15 samples.

Results

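Wnt proteins are secreted lipid-modified ligands, and this account follows the 37 mouse genes of the ligands and their cell-surface receptors in skin. The members were chosen by symbol: every gene named Wnt or Fzd with a number, and Lrp5, Lrp6, Ror1, Ror2, Ryk, Ptk7, Kremen1 and Kremen2. They comprise 19 Wnt ligands, 10 Frizzled receptors and 8 other receptors and co-receptors, of 56059 genes in the deposited table.

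RNA of skin was measured in 15 samples of a mouse sclerodermatous graft-versus-host disease model, a disease in which T cells of the donor turn on the recipient's tissues and the skin hardens. Combination skin (n = 4) came from allogeneic bone marrow recipients given Wnt-C59 at 5 mg/kg together with belumosudil at 150 mg/kg, and Wnt-C59 skin (n = 4) from allogeneic recipients given Wnt-C59 at 5 mg/kg alone. Allogeneic skin (n = 3) and syngeneic skin (n = 4) came from recipients of allogeneic and syngeneic marrow given 0.4% methylcellulose as vehicle. All 4 groups were transplanted and dosed by mouth once a day, with dosing from day 21 to day 49. Strains, sex and age of the mice are not given in the sources used here, and no library came from a mouse given belumosudil alone or from a treated syngeneic mouse. Belumosudil inhibits the kinase ROCK2, and Wnt-C59 blocks porcupine, which puts the lipid on Wnt proteins. The combination libraries were matched to their columns by elimination, because the column code is not spelled out in the labels, and treated libraries are called here by the numbers in their column names.

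A Wnt ligand binds a Frizzled together with either Lrp5 or Lrp6, which stabilises beta-catenin and turns on target genes through Tcf and Lef proteins. Other ligands act through Ror, Ryk and Ptk7 on cell polarity and movement without beta-catenin. In skin, Wnt signals are needed for hair follicles to form and to enter their growth phase, and they act on epidermal stem cells, dermal fibroblasts and fat.

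Library totals ran from 16.259 to 28.78 M (mega) estimated counts, and levels are given as counts per M of the scaled library (CPM). Of the 37 members, 34 had enough counts to be tested. Wnt1, Wnt7a and Wnt8b did not. Changes are log2 fold changes with their standard error (SE) from a model across 18651 genes, and a change was called at an adjusted p under 0.05. Vehicle and treated libraries differed beyond this gene family. The nuclear RNA Malat1 was at 65.0 to 136 CPM in the treated libraries and at 1071 to 3501 CPM in the vehicle libraries, and 44.76 to 60.62% of the estimated counts of treated libraries were not whole, against 31.07 to 34.39% in vehicle libraries. Whether these differences come from treatment or from how the libraries were made cannot be told apart. All labels say skin, and 6 of 6 basal keratinocyte markers were present in every group, with a summed level of 17609.8 to 29468 CPM in combination skin, 17049 to 22049 in Wnt-C59 skin, 12702 to 18019 in allogeneic skin and 5355 to 8888 in syngeneic skin.

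Wnt ligand and receptor transcripts were lower in allogeneic than in syngeneic skin. Of the 34 tested members, 20 fell and 0 rose in allogeneic skin, which is 58.8% of them, where 29.8% of all tested genes were called, 14.6% up and 15.1% down. The median log2 fold change of the members was -1.01, against -0.07 over all tested genes. By family, 7 of 16 ligands, 7 of 10 Frizzleds and 6 of 8 other receptors fell. In bulk skin RNA, fewer cells of a type and less RNA per cell cannot be told apart.

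In treated skin most of the called members were higher than in allogeneic skin given vehicle. In combination skin 21 members rose and 3 fell, where 54.5% of all tested genes were called and 27.1% were called up and 27.4% down, and the members' median log2 fold change was 0.97 against 0.01 over all genes. In Wnt-C59 skin 18 members rose and 2 fell, where 50.8% of all tested genes were called and 24.6% were called up and 26.2% down, and the median was 1.0 against 0.0. These comparisons and the one with syngeneic skin share the same 3 allogeneic libraries, so a chance deviation in those libraries enters all of them. A trend of fold change with the GC content of the transcript ran through both treated comparisons, and with this trend removed 9 members rose and 4 fell in combination skin and 11 rose and 2 fell in Wnt-C59 skin. That is 38.2% of the tested members in each treated group, where 43.4% of all tested genes were called in combination skin (20.7% up, 22.7% down) and 40.6% in Wnt-C59 skin (18.8% up, 21.8% down). Rises near the threshold also depended on the tool. With limma-voom Wnt11 and Ror2 in Wnt-C59 skin and Wnt8a, Wnt10b, Fzd3 and Kremen2 in combination skin were not called (adjusted p of 0.061 to 0.22). When only the 2 groups compared were fitted, Wnt3 and Kremen1 in Wnt-C59 skin and Wnt3, Wnt10b, Fzd3, Fzd7 and Kremen2 in combination skin were not called (adjusted p of 0.069 to 0.15). Without the filter on low counts Kremen1 in Wnt-C59 skin and Wnt3 and Wnt10b in combination skin were not called (adjusted p of 0.056 to 0.079). Other settings added calls in Wnt-C59 against allogeneic skin. Fzd3 and Kremen2 were called higher with DESeq2 (0.77 and 1.11, adjusted p of 0.049 and 0.047) and with only these groups fitted (0.78 and 1.12, adjusted p of 0.022 and 0.014), and Fzd3 also with upper-quartile scaling (0.87, adjusted p = 0.036). Wnt5a and Fzd4 were called lower with DESeq2 and Wnt5a and Fzd6 with only these groups fitted.

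**Figure D1:**
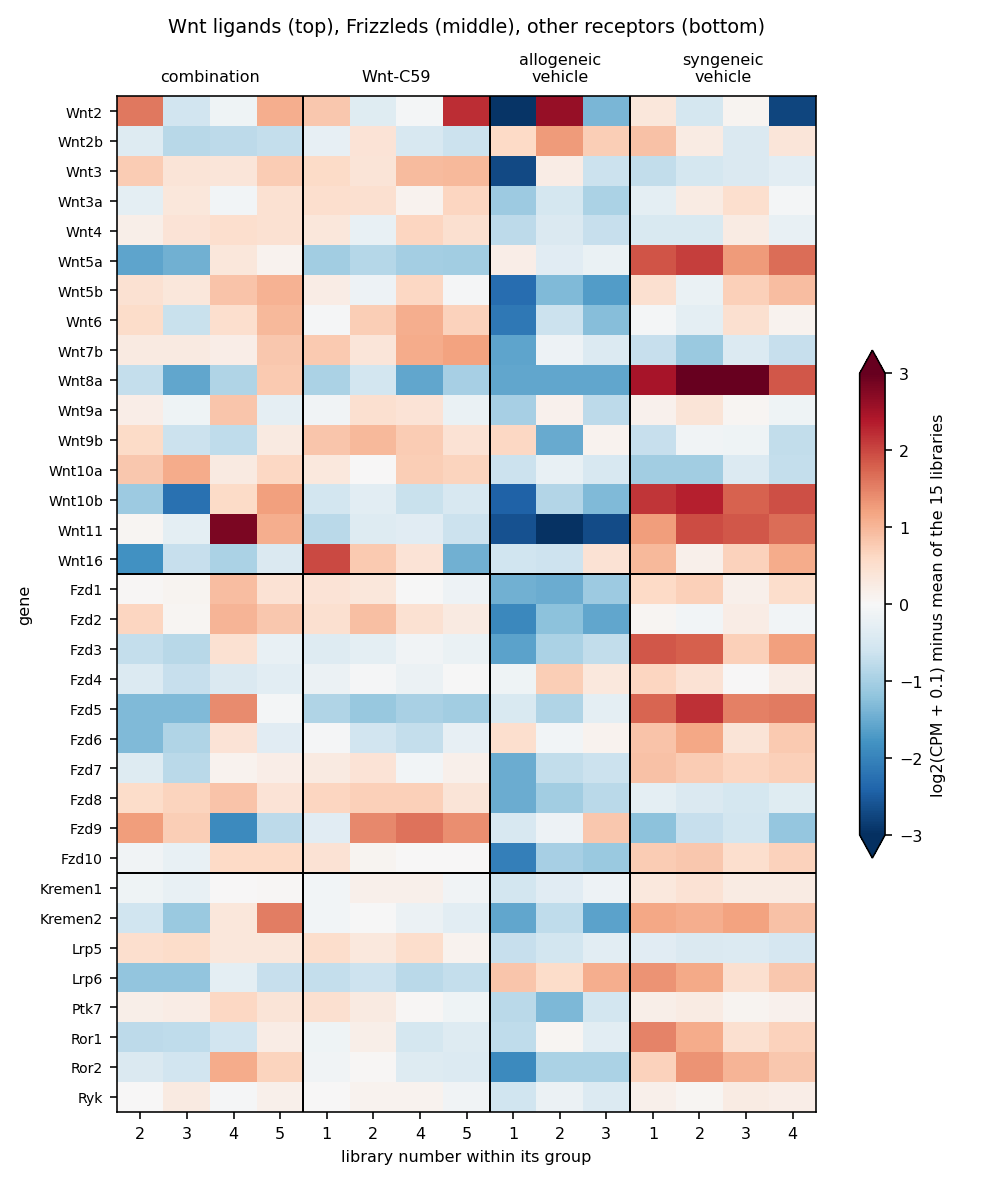
Level of the 34 tested genes in each of the 15 libraries, as log2(CPM + 0.1) minus the gene's mean over all libraries, with combination, Wnt-C59, allogeneic and syngeneic libraries from left to right. The allogeneic columns are low for most genes, and combination libraries 4 and 5 differ from combination libraries 2 and 3 for Wnt5a, Wnt10b, Wnt11 and Fzd5.

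The combination group held libraries with and without high levels of hair matrix and hair shaft transcripts. The summed level of 9 hair matrix and hair shaft markers, of 10 listed, was 15.6 and 19.1 CPM in combination libraries 2 and 3 and 39755 and 5274 CPM in combination libraries 4 and 5. It was 23.4 to 28.9 CPM in Wnt-C59 skin, 18.6 to 23.4 CPM in allogeneic skin and 7665 to 23684 CPM in syngeneic skin, and none of these markers was at 0 throughout a group. All 9 fell in allogeneic against syngeneic skin, where 5 of 6 bulge markers, 5 of 6 dermal papilla markers and 4 of 6 fibroblast markers fell as well. Of all tested genes 15.1% fell and 14.6% rose in that comparison. Bulge markers summed to 2591 to 2775 CPM in combination skin, 3486 to 5856 CPM in Wnt-C59 skin, 173 to 320 CPM in allogeneic skin and 1354 to 2778 CPM in syngeneic skin. Against syngeneic skin single bulge markers went both ways. Lgr5 and Sox9 were called lower in both treated groups, Nfatc1 higher in both and Krt15 higher in Wnt-C59 skin. The median log2 fold changes were 0.08 in combination and 0.13 in Wnt-C59 skin. Of all tested genes 26.9% rose and 27.2% fell in combination skin, and 26% rose and 27% fell in Wnt-C59 skin. Dermal papilla markers summed to 14.7 to 38.9 CPM in combination skin, 17.7 to 19.6 in Wnt-C59 skin, 32.8 to 38.3 in allogeneic skin and 76.9 to 153 in syngeneic skin. Single markers did not follow these sums. In combination against allogeneic skin Corin and Hhip were called higher and Trps1 lower, with a median log2 fold change of 0.65. In Wnt-C59 against allogeneic skin only Trps1 was called, lower, with a median of 0.59. Of all tested genes 27.1% rose and 27.4% fell in the first of these comparisons, and 24.6% rose and 26.2% fell in the second. The fibroblast sums were 2712 to 5690.2 CPM in combination skin, 2648 to 6263 in Wnt-C59 skin, 1030.5 to 1696 in allogeneic skin and 3083 to 7823 in syngeneic skin. Those of 6 T cell markers, all of which rose in allogeneic skin, were 24.6 to 48.2 CPM in combination skin, 22.7 to 35.0 in Wnt-C59 skin, 52.0 to 83.4 in allogeneic skin and 4.13 to 7.32 in syngeneic skin. The part of each cell type in the results that follow was not tested. Without combination libraries 4 and 5, a setting chosen after the data were seen, 13 members rose and 6 fell in combination against allogeneic skin, where 47.9% of all tested genes were called, 23.2% up and 24.7% down.

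The mix of ligand transcripts differed between groups. Divided by transcript length, Wnt10a, Wnt4, Wnt7b and Wnt3 were the 4 most abundant ligands in combination, Wnt-C59 and allogeneic skin. All of them are made by skin epithelium in mice. Wnt10a had 37.9 ± 9.04 CPM per kb in combination skin, 31.4 ± 7.0 in Wnt-C59 skin, 16.9 ± 2.59 in allogeneic skin and 13.3 ± 2.96 in syngeneic skin (SD). In syngeneic skin, Wnt4 at 19.8 ± 4.86 was followed by Wnt10b at 13.9 ± 2.4, Wnt5a at 13.3 ± 3.1, Wnt10a, Wnt11 at 12.3 ± 2.53, Wnt7b at 12.1 ± 2.35 and Wnt3 at 11.3 ± 1.34, and the ranges mean ± SD of neighbours in that order overlapped. These 4 ligands, picked after their values were seen, made up 65.1 to 87.3% of the summed ligand level per kb in combination skin, 76.3 to 83.7% in Wnt-C59 skin, 76.2 to 80.9% in allogeneic skin and 42.8 to 56.1% in syngeneic skin. The lowest combination share was that of library 4, and every syngeneic share was below every share of the other groups. Because these ligands were picked as the most abundant in those other groups, a lower syngeneic share follows in part from the choice. The summed basal keratinocyte markers were likewise lowest in the 4 syngeneic libraries, and their part in this mix was not tested.

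Wnt11, a ligand best known for signalling without beta-catenin, was at its lowest in allogeneic skin. Wnt11 had 13.4, 10.5, 92.2 and 27.5 CPM in combination skin, 7.28, 9.87, 10.1 and 8.17 in Wnt-C59 skin, 2, 1.56 and 1.92 in allogeneic skin and 30.6, 50.5, 47.1 and 41.1 in syngeneic skin. Every allogeneic library was below every library of the other 3 groups. The log2 fold change was -4.53 (SE 0.7, adjusted p = 0.00042) in allogeneic against syngeneic skin, 4.29 (SE 0.69, adjusted p = 0.0002) in combination against allogeneic skin and 2.27 (SE 0.64, adjusted p = 0.0096) in Wnt-C59 against allogeneic skin. Without combination library 4 the rise in combination skin was 3.23, without libraries 4 and 5 it was 2.72 and with the GC trend removed 3.54. With that trend removed the rise in Wnt-C59 skin was 1.61 and no longer called (adjusted p = 0.055).

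Wnt5b, a relative of Wnt5a that also acts mainly without beta-catenin, was also lowest in allogeneic skin, at lower levels. Wnt5b had 6.17, 5.77, 8.19 and 9.41 CPM in combination skin, 5.23, 4.02, 7.03 and 4.37 in Wnt-C59 skin, 0.85, 1.74 and 1.35 in allogeneic skin and 6.28, 3.94, 7.46 and 8.69 in syngeneic skin. It fell in allogeneic skin by a log2 fold change of -2.32 (SE 0.35, adjusted p = 0.00024). It rose by 2.48 (SE 0.35, adjusted p = 5.2e-05) in combination skin and by 1.97 (SE 0.34, adjusted p = 0.00033) in Wnt-C59 skin, and the allogeneic libraries lay below all others. Both rises were still called with the GC trend removed, at 1.53 and 1.14.

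Promoters are shown for 3 members that fell in allogeneic skin, rose in both treated groups and hold, upstream of a start site, a short sequence bound by Tcf and Lef proteins. The sequences searched were CTTTGAT and CTTTGTT on both strands in 300 bases, from 250 before to 50 after each start in RefSeq for build GRCm38.p6, where 26 of the 37 members had at least 1 entry. A match was found in 4 of 29 member promoters (13.8%), those of Wnt3, Wnt5b, Wnt11 and Fzd7, against 9.33% of all 32851 promoters. Whether these shares differ was not tested. The other listed starts of Wnt11 and Wnt5b held no match. A match describes letters and not a bound site. The 250 bases before the start are given 5′ to 3′ on the gene's strand, with the match in capitals, at chr7:98834862-98835111 (plus strand) for Wnt11, at chr6:119449387-119449636 (minus strand) for the Wnt5b start that holds it and at chr1:59481897-59482146 (plus strand) for Fzd7.
Wnt11 promoter: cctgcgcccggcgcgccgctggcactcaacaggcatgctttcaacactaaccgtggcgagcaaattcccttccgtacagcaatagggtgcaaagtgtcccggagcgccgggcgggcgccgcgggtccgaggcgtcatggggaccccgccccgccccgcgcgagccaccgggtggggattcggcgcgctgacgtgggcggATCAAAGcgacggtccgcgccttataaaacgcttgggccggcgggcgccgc
Wnt5b promoter: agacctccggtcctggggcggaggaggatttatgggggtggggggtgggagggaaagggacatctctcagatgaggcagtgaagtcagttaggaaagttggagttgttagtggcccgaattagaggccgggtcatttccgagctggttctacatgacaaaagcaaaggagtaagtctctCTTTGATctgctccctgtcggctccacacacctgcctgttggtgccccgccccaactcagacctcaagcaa
Fzd7 promoter: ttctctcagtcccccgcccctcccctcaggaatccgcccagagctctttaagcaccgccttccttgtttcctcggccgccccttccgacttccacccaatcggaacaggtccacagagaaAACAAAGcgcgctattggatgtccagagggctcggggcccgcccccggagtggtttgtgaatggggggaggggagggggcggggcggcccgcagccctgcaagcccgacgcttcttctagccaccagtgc

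Wnt10b, a ligand of the beta-catenin pathway that promotes the growth phase of the hair follicle, fell in allogeneic skin as well. Wnt10b had 4.19, 1.83, 13.5 and 21.3 CPM in combination skin, 6.05, 7.19, 5.57 and 6.37 in Wnt-C59 skin, 1.58, 4.85 and 3.5 in allogeneic skin and 40.0, 45.6, 30.8 and 34.4 in syngeneic skin. All 4 syngeneic libraries were above all others, and combination libraries 4 and 5 stood above combination libraries 2 and 3. The log2 fold change was -3.51 (SE 0.68, adjusted p = 0.0019) in allogeneic against syngeneic skin and 0.93 (SE 0.62, adjusted p = 0.24) in Wnt-C59 against allogeneic skin. In combination against allogeneic skin it was 1.62 (SE 0.63, adjusted p = 0.044), and -0.12 without combination libraries 4 and 5. That call was also lost without combination library 4 or 5 alone, without allogeneic library 1 or 3 and with the GC trend removed, with adjusted p of 0.09 to 0.15.

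Wnt5a, the main ligand of Ror2, fell in allogeneic skin and did not rise in either treated group. Wnt5a had 9.15, 10.0, 34.8 and 29.7 CPM in combination skin, 13.2, 15.2, 13.6 and 13.2 in Wnt-C59 skin, 31.4, 21.7 and 23.9 in allogeneic skin and 102, 117, 66.4 and 87.8 in syngeneic skin. Its level was highest in the 4 syngeneic libraries. The log2 fold change was -1.86 (SE 0.41, adjusted p = 0.004) in allogeneic against syngeneic skin, -0.3 (SE 0.39, adjusted p = 0.53) in combination against allogeneic skin and -0.9 (SE 0.39, adjusted p = 0.069) in Wnt-C59 against allogeneic skin. All 4 Wnt-C59 libraries were below all 3 allogeneic ones, a difference that missed the threshold with edgeR and all libraries. It was called with DESeq2 (-0.94, adjusted p = 0.035) and with only these groups fitted (-0.93, adjusted p = 0.0026). Without combination libraries 4 and 5 the change in combination skin was -1.41 and called (adjusted p = 0.00032).

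Wnt6 and Wnt3a, ligands that can act through beta-catenin, fell in allogeneic skin and rose in both treated groups. Wnt6 had 15.3, 6.44, 14.7 and 20.6 CPM in combination skin, 10.1, 17.3, 22.1 and 16.8 in Wnt-C59 skin, 2.25, 6.59 and 4.23 in allogeneic skin and 9.95, 8.44, 14.6 and 11.2 in syngeneic skin. Its log2 fold change was -1.34 (SE 0.41, adjusted p = 0.022) in allogeneic against syngeneic skin, 1.71 (SE 0.41, adjusted p = 0.0028) in combination against allogeneic skin and 1.93 (SE 0.41, adjusted p = 0.0015) in Wnt-C59 against allogeneic skin. The fall was lost without allogeneic library 1 or 3, without syngeneic library 3 and with the GC trend removed (adjusted p of 0.055 to 0.091), and the rise in combination skin was lost with the GC trend removed (0.69, adjusted p = 0.14), while that in Wnt-C59 skin was then 1.05. Wnt3a had 7.8, 12.1, 9.04 and 13.1 CPM in combination skin, 13.5, 13.3, 10.3 and 14.9 in Wnt-C59 skin, 4.43, 6.53 and 4.85 in allogeneic skin and 7.8, 11.3, 13.6 and 9.13 in syngeneic skin. The allogeneic libraries were below all others. The changes were -0.99 (SE 0.25, adjusted p = 0.0083) in allogeneic against syngeneic, 0.99 (SE 0.25, adjusted p = 0.0037) in combination against allogeneic and 1.3 (SE 0.25, adjusted p = 0.00069) in Wnt-C59 against allogeneic skin. When allogeneic library 3 was left out, the fall of Wnt3a was no longer called (adjusted p = 0.057). With the GC trend removed its rises were 0.22 in combination skin and 0.63 in Wnt-C59 skin and not called (adjusted p of 0.48 and 0.052).

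Wnt8a, known from the early embryo, was counted mostly in syngeneic skin. Wnt8a had 0.0776, 0, 0.0565 and 0.407 CPM in combination skin, 0.0513, 0.0992, 0 and 0.0475 in Wnt-C59 skin, 0, 0 and 0 in allogeneic skin and 1.51, 2.74, 3.07 and 0.97 in syngeneic skin. These are 12 counts in combination skin, 4 in Wnt-C59 skin, 0 in allogeneic skin and 181 in syngeneic skin. With 3 counts per library as the floor, the mean was at least 11.7-fold lower in allogeneic than in syngeneic skin (adjusted p = 0.00096). The model called it higher in combination than in allogeneic skin (adjusted p = 0.042), a call that rested on the 9 counts of combination library 5 and was lost without that library (adjusted p = 0.13), without allogeneic library 1, 2 or 3 (adjusted p of 0.083 to 0.092) and with the GC trend removed (adjusted p = 0.092). No fold is given against the allogeneic libraries at 0.

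The epithelial ligands Wnt4, Wnt7b, Wnt10a and Wnt3 were not called in allogeneic against syngeneic skin and rose in both treated groups. Wnt4 had 107, 126, 134 and 130.1 CPM in combination skin, 119, 81.3, 148 and 131 in Wnt-C59 skin, 55, 69.7 and 58.1 in allogeneic skin and 69.2, 69.2, 112 and 81 in syngeneic skin. The allogeneic libraries were below all treated libraries, and the lowest syngeneic libraries overlapped the highest allogeneic one. Its log2 fold change was -0.44 (SE 0.21, adjusted p = 0.12) in allogeneic against syngeneic skin, 1.03 (SE 0.21, adjusted p = 0.00091) in combination against allogeneic skin and 0.98 (SE 0.21, adjusted p = 0.0015) in Wnt-C59 against allogeneic skin. Wnt7b had 81, 80.6, 76.7 and 118 CPM in combination skin, 115, 86.3, 145 and 156 in Wnt-C59 skin, 22.5, 60.6 and 50.5 in allogeneic skin and 41.6, 31, 50.5 and 41.8 in syngeneic skin. All treated libraries exceeded all vehicle libraries. The changes of Wnt7b were 0.11 (SE 0.29, adjusted p = 0.81) in allogeneic against syngeneic, 1.0 (SE 0.3, adjusted p = 0.011) in combination against allogeneic and 1.5 (SE 0.31, adjusted p = 0.001) in Wnt-C59 against allogeneic skin. Wnt10a had 98.3, 121, 67.9 and 86.9 CPM in combination skin, 69.7, 56.9, 93.4 and 90.1 in Wnt-C59 skin, 35.9, 48.6 and 40.6 in allogeneic skin and 27.3, 27.3, 42.6 and 34.4 in syngeneic skin. Mutations of its human counterpart cause ectodermal dysplasia with missing teeth and sparse hair. Wnt10a changed by 0.34 (SE 0.22, adjusted p = 0.27) in allogeneic against syngeneic skin, by 1.17 (SE 0.23, adjusted p = 0.00073) in combination skin and by 0.89 (SE 0.23, adjusted p = 0.0049) in Wnt-C59 skin against allogeneic skin, and no treated library overlapped a vehicle library. Of the 6 basal keratinocyte markers 2 rose and 2 fell in combination and 3 rose and 2 fell in Wnt-C59 against allogeneic skin, and their part in the rises of these ligands was not tested.

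Wnt3 had 83.2, 64.3, 63.5 and 84 CPM in combination skin, 72.8, 63.8, 94.4 and 97.1 in Wnt-C59 skin, 7.41, 57.8 and 31.2 in allogeneic skin and 29.6, 34.3, 36.1 and 39.5 in syngeneic skin. The 3 allogeneic libraries of this ligand of the beta-catenin pathway were spread more widely than those of any other group. Its log2 fold change was -0.12 (SE 0.43, adjusted p = 0.87) in allogeneic against syngeneic skin, 1.2 (SE 0.45, adjusted p = 0.035) in combination against allogeneic skin and 1.35 (SE 0.45, adjusted p = 0.022) in Wnt-C59 against allogeneic skin. The rises of Wnt3 were lost without allogeneic library 3 (adjusted p of 0.085 in combination and 0.065 in Wnt-C59 skin), and the one in combination skin also without combination library 2 or 5 (adjusted p of 0.065 and 0.061) or without libraries 4 and 5 (adjusted p = 0.087). Without allogeneic library 2 the rises were 1.96 and 2.09. The rises of these epithelial ligands were all lost with the GC trend removed. They were then 0.33 and 0.37 for Wnt4, 0.08 and 0.71 for Wnt7b, 0.07 and -0.05 for Wnt10a and 0.81 and 1.01 for Wnt3 in combination and Wnt-C59 skin, with adjusted p of 0.07 to 0.88. Without combination libraries 4 and 5 Wnt7b was 0.88 higher in combination skin and not called (adjusted p = 0.05).

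Wnt2b, a ligand of the beta-catenin pathway, was the only tested ligand that edgeR with all libraries called lower in the treated groups than in allogeneic skin. Wnt2b had 1.67, 1.2, 1.24 and 1.31 CPM in combination skin, 1.85, 2.98, 1.56 and 1.38 in Wnt-C59 skin, 3.4, 5.51 and 3.78 in allogeneic skin and 4.17, 2.64, 1.6 and 2.87 in syngeneic skin. The 3 allogeneic libraries were above all 8 treated ones. The log2 fold change was -1.63 (SE 0.35, adjusted p = 0.0013) in combination and -1.12 (SE 0.35, adjusted p = 0.015) in Wnt-C59 against allogeneic skin, and 0.58 (SE 0.35, adjusted p = 0.22) in allogeneic against syngeneic skin. Without allogeneic library 2 the fall in Wnt-C59 skin was -0.89 and not called (adjusted p = 0.063), and with the GC trend removed the falls were -2.38 and -1.77.

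The other 7 ligands were not called in a comparison with allogeneic skin. Wnt2 ranged from 0.182 to 13.2 CPM over the 15 libraries, and both ends were allogeneic libraries. Without allogeneic library 2, which holds the highest value, Wnt2 was called 2.94 higher in combination and 3.21 higher in Wnt-C59 than in allogeneic skin (adjusted p of 0.042 and 0.031). Wnt9a ranged from 2.79 to 10.2 CPM, Wnt9b from 0.0599 to 0.793 CPM and Wnt16, which keratinocytes make, from 0.233 to 4.56 CPM. Without allogeneic library 2 Wnt9a was called too, at -0.99 in allogeneic against syngeneic skin and at 1.15 and 1.07 in combination and Wnt-C59 against allogeneic skin (adjusted p of 0.011 to 0.043). Wnt16 was called 1.5 higher in Wnt-C59 than in allogeneic skin without Wnt-C59 library 5 (adjusted p = 0.034) and 2.04 higher with the GC trend removed (adjusted p = 0.025). Wnt1, Wnt7a and Wnt8b, the ligands left out by the filter, reached at most 0.466, 1.52 and 0.132 CPM. When the filter was dropped, Wnt7a was called 3.19 higher in allogeneic than in syngeneic skin (adjusted p = 0.016) and lower in combination and Wnt-C59 than in allogeneic skin, by -2.28 and -2.31 (adjusted p of 0.041 and 0.042). Without allogeneic library 2 it passed the filter and was 3.73 higher in allogeneic than in syngeneic skin (adjusted p = 0.0045).

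**Figure D2:**
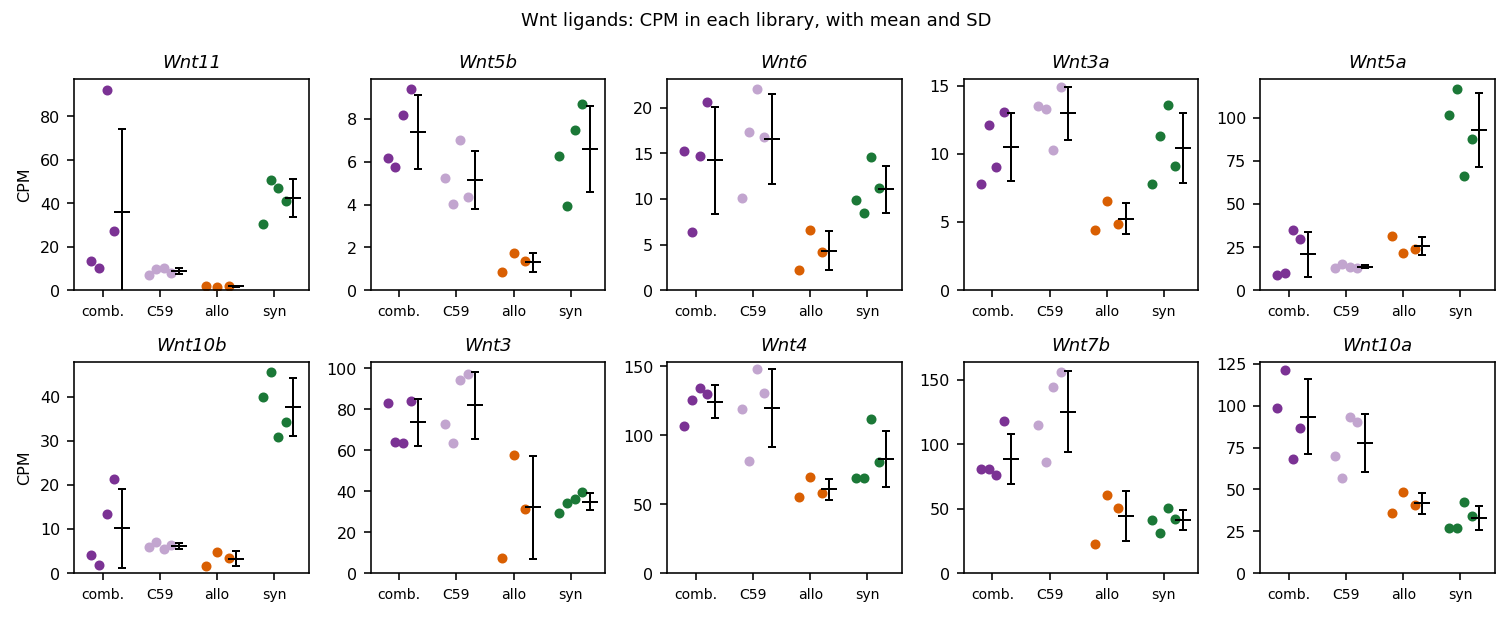
CPM of 10 Wnt ligands in each library, with the group mean and SD as horizontal bar and whiskers and the groups combination, Wnt-C59, allogeneic and syngeneic from left to right. Wnt11 and Wnt5b are lowest in the 3 allogeneic libraries, Wnt5a and Wnt10b are highest in the 4 syngeneic ones, and Wnt7b and Wnt10a are higher in all treated than in all vehicle libraries.

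Frizzled genes encode the receptors with a cysteine-rich domain that binds the lipid and the body of the ligand. Of 10 Frizzleds, 7 fell in allogeneic skin, and 6 rose in combination skin and 5 in Wnt-C59 skin. Of all tested genes 15.1% fell in allogeneic skin, 27.1% rose in combination skin and 24.6% rose in Wnt-C59 skin. Fzd1 and Fzd2, receptors close to each other in sequence, moved in the same directions. Fzd1 had 113, 118, 210.2 and 149.5 CPM in combination skin, 147, 140.1, 111 and 100.4 in Wnt-C59 skin, 40.6, 39.5 and 52.1 in allogeneic skin and 168, 183, 123 and 160.3 in syngeneic skin. No allogeneic library overlapped another group. Its log2 fold change was -1.85 (SE 0.23, adjusted p = 7.2e-05) in allogeneic against syngeneic skin, 1.75 (SE 0.23, adjusted p = 3.4e-05) in combination against allogeneic skin and 1.5 (SE 0.23, adjusted p = 0.00013) in Wnt-C59 against allogeneic skin. Fzd2 had 72.4, 48.2, 93.9 and 81.1 CPM in combination skin, 65, 86.4, 63.3 and 56 in Wnt-C59 skin, 12.1, 19.6 and 15.6 in allogeneic skin and 48.7, 43.8, 54.6 and 44.1 in syngeneic skin. The allogeneic libraries were again the lowest, and each treated group lay around or above the syngeneic level. Fzd2 changed by -1.6 (SE 0.23, adjusted p = 0.00018) in allogeneic against syngeneic, 2.23 (SE 0.24, adjusted p = 7.7e-06) in combination against allogeneic and 2.1 (SE 0.23, adjusted p = 1.3e-05) in Wnt-C59 against allogeneic skin. With the GC trend removed the rises in combination and Wnt-C59 skin were 1.07 and 0.91 for Fzd1 and 1.48 and 1.44 for Fzd2.

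Fzd10 and Fzd7, of which Fzd7 is a close relative of Fzd1 and Fzd2, fell in allogeneic skin and rose in both treated groups. Fzd10 had 45.5, 42.3, 74.6 and 75.1 CPM in combination skin, 66.9, 52.1, 49.8 and 49.4 in Wnt-C59 skin, 11.8, 24.5 and 22.7 in allogeneic skin and 83.1, 86.4, 70.0 and 80.2 in syngeneic skin. The treated libraries lay between the allogeneic and the highest syngeneic ones. Fzd10 changed on the log2 scale by -2.02 (SE 0.27, adjusted p = 9.8e-05) in allogeneic against syngeneic skin, 1.59 (SE 0.26, adjusted p = 0.00017) in combination against allogeneic skin and 1.47 (SE 0.26, adjusted p = 0.00038) in Wnt-C59 against allogeneic skin. Fzd7 had 50.8, 37.6, 70.8 and 75.5 CPM in combination skin, 80.4, 87.9, 62.9 and 74.1 in Wnt-C59 skin, 23.6, 39.4 and 42.3 in allogeneic skin and 121, 113, 104 and 108 in syngeneic skin. All 4 syngeneic libraries were above all others. Fzd7 changed by -1.67 (SE 0.24, adjusted p = 0.00021) in allogeneic against syngeneic, 0.74 (SE 0.24, adjusted p = 0.016) in combination against allogeneic and 1.12 (SE 0.24, adjusted p = 0.0014) in Wnt-C59 against allogeneic skin. The rises of Fzd10 were 0.86 in combination and 0.83 in Wnt-C59 skin with the GC trend removed. The rise of Fzd7 in combination skin was not called with allogeneic library 1 left out (0.52, adjusted p = 0.081), without combination libraries 4 and 5 (0.35, adjusted p = 0.23) and with the GC trend removed (0.23, adjusted p = 0.47).

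Fzd8, a receptor of the beta-catenin pathway, exceeded the syngeneic level in every treated library. Fzd8 had 15.6, 17, 19.4 and 14.2 CPM in combination skin, 16.8, 17.7, 17.5 and 14 in Wnt-C59 skin, 3.71, 5.15 and 6.09 in allogeneic skin and 8.76, 7.84, 7.42 and 8.25 in syngeneic skin. The 8 treated libraries were above all vehicle libraries, and the 3 allogeneic libraries were the lowest. It changed by -0.69 (SE 0.19, adjusted p = 0.012) in allogeneic against syngeneic skin, by 1.73 (SE 0.19, adjusted p = 1e-05) in combination against allogeneic skin and by 1.73 (SE 0.19, adjusted p = 1.3e-05) in Wnt-C59 against allogeneic skin. Against syngeneic skin it was 1.04 (SE 0.17, adjusted p = 0.00017) higher in combination and 1.03 (SE 0.17, adjusted p = 0.00022) higher in Wnt-C59 skin. Its fall in allogeneic skin was not called with allogeneic library 1 left out (-0.52, adjusted p = 0.061) or when only the 2 groups compared were fitted (adjusted p = 0.065).

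Fzd5 and Fzd3 stayed below the syngeneic level in treated skin. Fzd5 had 8.38, 8.37, 57 and 20.3 CPM in combination skin, 11.3, 9.62, 10.7 and 10.3 in Wnt-C59 skin, 15.5, 11.3 and 17.4 in allogeneic skin and 71.6, 97.5, 60.7 and 63.2 in syngeneic skin. Combination library 4 reached nearly the lowest syngeneic library, and the other treated libraries lay far below it. Fzd5 changed on the log2 scale by -2.32 (SE 0.56, adjusted p = 0.0078) in allogeneic against syngeneic skin, 0.67 (SE 0.53, adjusted p = 0.3) in combination against allogeneic skin and -0.49 (SE 0.52, adjusted p = 0.47) in Wnt-C59 against allogeneic skin, and without combination libraries 4 and 5 the change in combination skin was -0.8 and called lower (adjusted p = 0.011). Fzd3 acts with Fzd6 in tissue polarity in mice. Fzd3 had 7.76, 7.12, 17.4 and 10.9 CPM in combination skin, 9.64, 10.3, 11.8 and 11 in Wnt-C59 skin, 4.13, 6.59 and 7.55 in allogeneic skin and 46.6, 44.4, 21.1 and 30.1 in syngeneic skin. All syngeneic libraries were above all others. Fzd3 changed by -2.54 (SE 0.35, adjusted p = 0.00014) in allogeneic against syngeneic, 0.82 (SE 0.33, adjusted p = 0.049) in combination against allogeneic and 0.81 (SE 0.33, adjusted p = 0.055) in Wnt-C59 against allogeneic skin. The rise in combination skin was lost without combination library 4 or 5 or allogeneic library 1 or 2 (adjusted p of 0.061 to 0.18) and was 0.3 without combination libraries 4 and 5. With the GC trend removed the changes were 1.89 in combination and 1.74 in Wnt-C59 skin, both called.

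Fzd4, the receptor for norrin in blood vessels, did not differ detectably between allogeneic and syngeneic skin. Fzd4 had 36.9, 30.3, 36.3 and 39.2 CPM in combination skin, 43.3, 48, 43.4 and 48.5 in Wnt-C59 skin, 45, 82.3 and 60.7 in allogeneic skin and 77.2, 66, 49.6 and 56.9 in syngeneic skin. The combination libraries were below all others. The log2 fold change was 0.01 (SE 0.19, adjusted p = 0.99) in allogeneic against syngeneic skin, -0.81 (SE 0.19, adjusted p = 0.0022) in combination against allogeneic skin and -0.45 (SE 0.19, adjusted p = 0.057) in Wnt-C59 against allogeneic skin, where it was -0.64 and called without allogeneic library 1 (adjusted p = 0.011) and -0.49 and called with DESeq2 (adjusted p = 0.032). The 6 endothelial markers summed to 147 to 257 CPM in combination skin, 220.2 to 329.9 in Wnt-C59 skin, 189 to 305 in allogeneic skin and 91.2 to 114 in syngeneic skin, and their part in the Fzd4 values was not tested. Fzd6, which orients hairs in mouse skin, ranged from 19.7 to 111 CPM and Fzd9 from 0.791 to 10.3 CPM, and neither was called in a comparison with allogeneic skin with all libraries and edgeR. Without combination library 4 Fzd6 was called -1.0 in combination against allogeneic skin (adjusted p = 0.0064), and without libraries 4 and 5 -1.29 (adjusted p = 0.0019). With only the groups compared in the fit it was called -0.59 in Wnt-C59 against allogeneic skin (adjusted p = 0.047). Fzd6 was -1.22 (SE 0.31, adjusted p = 0.0041) in combination and -1.19 (SE 0.31, adjusted p = 0.0051) in Wnt-C59 against syngeneic skin, and -1.87 in combination skin without libraries 4 and 5.

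The co-receptors of the beta-catenin pathway went opposite ways in treated skin. Lrp5 had 216, 226, 194 and 195 CPM in combination skin, 222, 192, 220.1 and 166 in Wnt-C59 skin, 94.4, 105 and 123 in allogeneic skin and 122, 113, 116 and 109 in syngeneic skin. All 8 treated libraries were above all vehicle libraries. Lrp5 changed on the log2 scale by 0.95 (SE 0.14, adjusted p = 6.8e-05) in combination and 0.89 (SE 0.14, adjusted p = 0.00013) in Wnt-C59 against allogeneic skin, and -0.1 (SE 0.14, adjusted p = 0.63) in allogeneic against syngeneic skin. Lrp6 had 28.2, 27.9, 51.7 and 39.2 CPM in combination skin, 39, 41.3, 36.4 and 38.6 in Wnt-C59 skin, 113, 94.2 and 137 in allogeneic skin and 163, 140.4, 88.7 and 112 in syngeneic skin. All treated libraries were below all vehicle libraries. Lrp6 changed by -1.64 (SE 0.23, adjusted p = 5.2e-05) in combination and -1.56 (SE 0.23, adjusted p = 9.6e-05) in Wnt-C59 against allogeneic skin, and by -0.14 (SE 0.23, adjusted p = 0.7) in allogeneic against syngeneic skin. Per kb of transcript, Lrp5 averaged 23.4 ± 1.81 CPM in combination skin, 22.5 ± 2.99 in Wnt-C59 skin, 12.1 ± 1.63 in allogeneic skin and 12.9 ± 0.614 in syngeneic skin (SD). Lrp6 averaged 3.92 ± 1.2 CPM per kb in combination skin, 4.14 ± 0.214 in Wnt-C59 skin, 12.3 ± 2.28 in allogeneic skin and 13.5 ± 3.47 in syngeneic skin. Both changes remained called with the GC trend removed, at 0.35 and 0.37 for Lrp5 and -1.27 and -1.23 for Lrp6 in combination and Wnt-C59 skin.

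Kremen proteins bind the antagonist Dkk and take Lrp6 off the cell surface. Kremen1 had 117, 109, 128 and 130.0 CPM in combination skin, 121, 141, 141 and 119 in Wnt-C59 skin, 86.3, 101 and 115 in allogeneic skin and 159, 172, 150.0 and 152 in syngeneic skin. The syngeneic libraries were above all others, and the groups otherwise lay close together. Kremen1 changed on the log2 scale by -0.65 (SE 0.13, adjusted p = 0.0018) in allogeneic against syngeneic skin, 0.27 (SE 0.13, adjusted p = 0.094) in combination against allogeneic skin and 0.38 (SE 0.13, adjusted p = 0.025) in Wnt-C59 against allogeneic skin. The rise in Wnt-C59 skin was lost without Wnt-C59 library 2 or 4 or allogeneic library 1 (adjusted p of 0.067 to 0.13). With the GC trend removed the change was -0.18 in Wnt-C59 skin and not called (adjusted p = 0.29). In combination skin it was then -0.37 and called lower (adjusted p = 0.034). Without allogeneic library 3 the change in combination skin was 0.38 and called (adjusted p = 0.037). Kremen2 had 2.79, 1.92, 5.43 and 12.7 CPM in combination skin, 4.05, 4.27, 3.8 and 3.42 in Wnt-C59 skin, 1.4, 2.51 and 1.35 in allogeneic skin and 9.77, 9.18, 10.1 and 7.98 in syngeneic skin. Combination library 5 was the highest of all libraries. Kremen2 changed by -2.4 (SE 0.52, adjusted p = 0.0031) in allogeneic against syngeneic, 1.7 (SE 0.51, adjusted p = 0.011) in combination against allogeneic and 1.14 (SE 0.5, adjusted p = 0.069) in Wnt-C59 against allogeneic skin. Without allogeneic library 2 Kremen2 was 1.49 higher in Wnt-C59 skin (adjusted p = 0.05). The rise in combination skin was 0.96 without combination library 5. It was 0.44 without libraries 4 and 5 and 0.79 with the GC trend removed, and neither was called (adjusted p of 0.27 and 0.22).

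Ror1, Ror2, Ryk and Ptk7 carry the signals that leave beta-catenin aside, and all of them fell in allogeneic skin. Ror2 had 6.32, 5.72, 18.6 and 13.6 CPM in combination skin, 7.94, 8.68, 6.51 and 6.42 in Wnt-C59 skin, 2.19, 4.37 and 4.4 in allogeneic skin and 13.8, 21.8, 17.3 and 15.1 in syngeneic skin. The 3 allogeneic libraries were the lowest. Ror2, a receptor of Wnt5a, changed on the log2 scale by -2.22 (SE 0.4, adjusted p = 0.0009) in allogeneic against syngeneic skin, 1.59 (SE 0.39, adjusted p = 0.0032) in combination against allogeneic skin and 1.01 (SE 0.38, adjusted p = 0.039) in Wnt-C59 against allogeneic skin. The rise in Wnt-C59 skin was lost without Wnt-C59 library 1, 2 or 4 or allogeneic library 1 or 3 (adjusted p of 0.051 to 0.16) and with the GC trend removed (0.24, adjusted p = 0.64). The rise in combination skin was 0.74 without libraries 4 and 5 (adjusted p = 0.062) and 0.7 with the GC trend removed (adjusted p = 0.15). Ror1 had 3.1, 3.17, 3.62 and 6.38 CPM in combination skin, 4.97, 6.1, 3.7 and 4.13 in Wnt-C59 skin, 3.16, 5.69 and 4.34 in allogeneic skin and 15.3, 11.8, 7.55 and 8.86 in syngeneic skin. Only the syngeneic libraries stood above the rest. Ror1 changed by -1.31 (SE 0.33, adjusted p = 0.0088) in allogeneic against syngeneic, -0.11 (SE 0.32, adjusted p = 0.79) in combination against allogeneic and 0.1 (SE 0.33, adjusted p = 0.82) in Wnt-C59 against allogeneic skin.

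Ptk7 had 116, 121, 159 and 135 CPM in combination skin, 145, 124, 106 and 94.9 in Wnt-C59 skin, 58.9, 40.6 and 69.9 in allogeneic skin and 116, 123, 109 and 113 in syngeneic skin. The allogeneic libraries of this catalytically inactive polarity receptor were the lowest, and the treated ones lay around the syngeneic level. Ptk7 changed by -1.03 (SE 0.19, adjusted p = 0.0011) in allogeneic against syngeneic skin, by 1.23 (SE 0.19, adjusted p = 0.00011) in combination against allogeneic skin and by 1.06 (SE 0.19, adjusted p = 0.00042) in Wnt-C59 against allogeneic skin. The rises were 0.31 and 0.27 with the GC trend removed and not called (adjusted p of 0.24 and 0.33). Ryk had 101, 121, 98.2 and 110.5 CPM in combination skin, 101, 107, 108 and 93.5 in Wnt-C59 skin, 66.4, 88.2 and 75.7 in allogeneic skin and 112, 105, 118 and 116 in syngeneic skin. The allogeneic libraries of Ryk, a receptor with a Wnt-binding WIF domain, were again below all others. Ryk changed by -0.55 (SE 0.12, adjusted p = 0.0041) in allogeneic against syngeneic, 0.49 (SE 0.12, adjusted p = 0.0043) in combination against allogeneic and 0.41 (SE 0.12, adjusted p = 0.012) in Wnt-C59 against allogeneic skin, with the smallest SE of any member. Its rise in Wnt-C59 skin was not called with allogeneic library 1 left out (0.32, adjusted p = 0.071) or library 3 (0.39, adjusted p = 0.05).

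**Figure D3:**
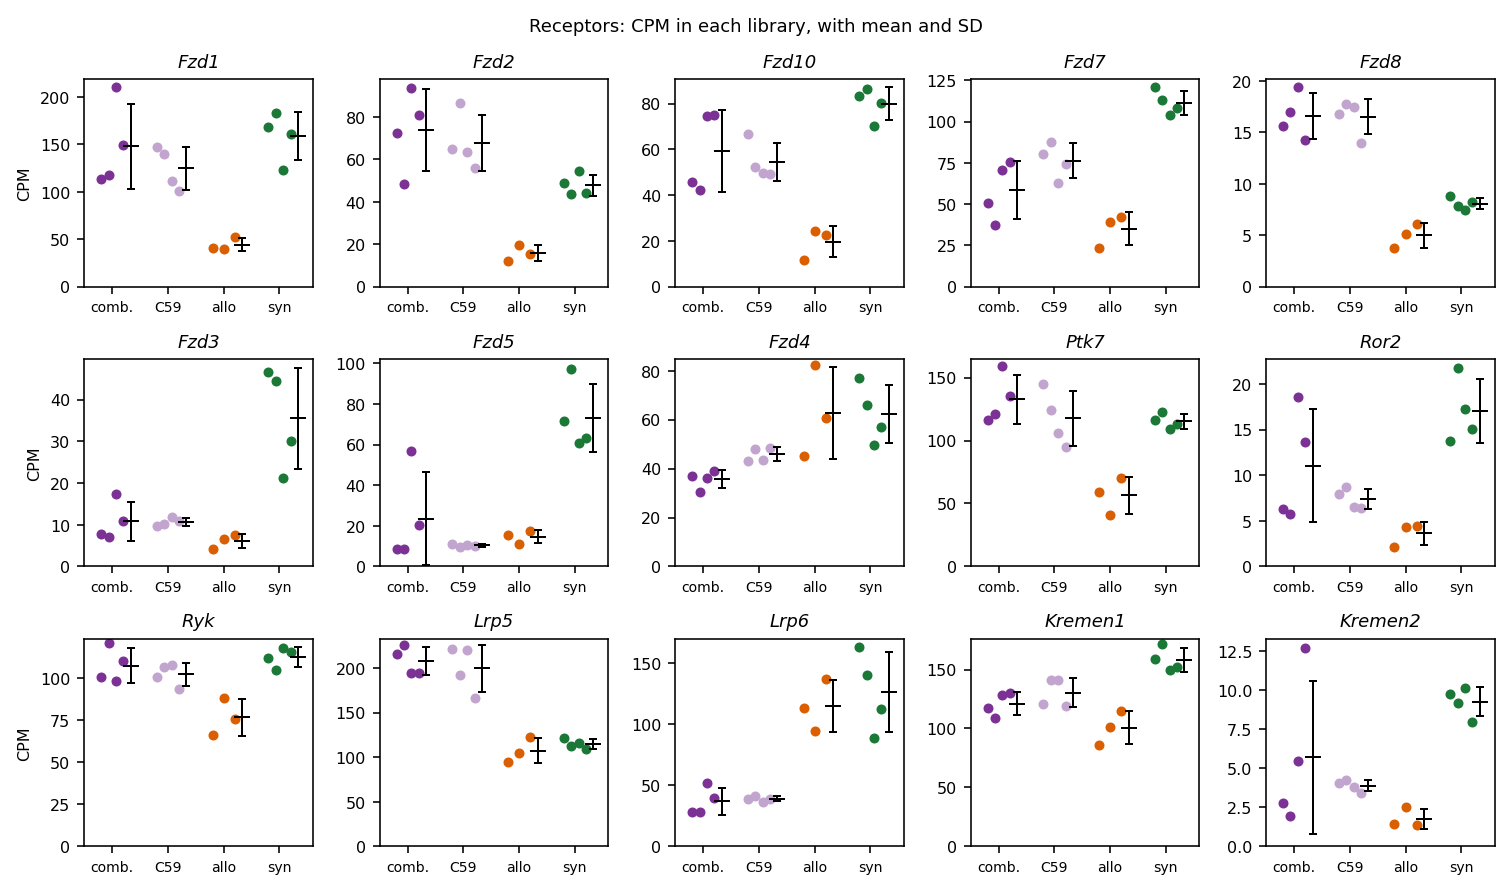
CPM of Frizzleds and other receptors in each library, with the group mean and SD, and the groups combination, Wnt-C59, allogeneic and syngeneic from left to right. Lrp5 is higher and Lrp6 lower in all 8 treated libraries than in all 7 vehicle libraries, and Fzd1, Fzd2 and Ryk are lowest in the 3 allogeneic libraries.

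Adding belumosudil to Wnt-C59 was addressed by the comparison of combination with Wnt-C59 skin. Of the 34 tested members 0 were called by edgeR, where 0.231% of all tested genes were called, 0.102% up and 0.129% down. The share of all tested genes with an unadjusted p under 0.05 was not counted, so no excess of members can be read from that threshold. An unadjusted p under 0.05 was found for 3 members. These were Wnt11 with a difference of 2.02 (95% interval 0.83 to 3.2), Wnt16 with -1.95 (95% interval -3.3 to -0.6) and Fzd5 with 1.16 (95% interval 0.08 to 2.25), as log2 fold change of combination over Wnt-C59 skin. DESeq2 called Wnt11 (2.05, adjusted p = 0.002) and Wnt16 (-1.95, adjusted p = 0.033), and limma-voom called 0. For Wnt11 all combination libraries were above all Wnt-C59 libraries (7.28 to 10.1 CPM), and libraries 2 and 3 were the nearest, at 13.4 and 10.5 CPM. For Fzd5 combination libraries 2 and 3, at 8.38 and 8.37 CPM, were below all Wnt-C59 libraries (9.62 to 11.3 CPM), and libraries 4 and 5 were above them. Without combination library 4 the difference was 0.95 for Wnt11 (adjusted p = 0.11) and 0.24 for Fzd5 (adjusted p = 0.68), and without Wnt-C59 library 1 it was -1.21 for Wnt16 (adjusted p = 0.28). The 95% interval stayed within 1 on the log2 scale in either direction for 18 members, among them Ryk at 0.07 (95% interval -0.18 to 0.32), Lrp5 at 0.06 (95% interval -0.22 to 0.33), Fzd8 at 0.01 (95% interval -0.36 to 0.37) and Wnt4 at 0.05 (95% interval -0.37 to 0.47). It was widest for Wnt2, at -0.28 (95% interval -2.55 to 2.0), so a change of several-fold in that gene was not detectable here.

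Against syngeneic skin, members differed in both directions in treated skin. In combination skin 7 members were higher and 13 lower than in syngeneic skin, where 54.1% of all tested genes were called, 26.9% up and 27.2% down. In Wnt-C59 skin 9 were higher and 13 lower, where 53.1% were called, 26% up and 27% down. Wnt10a was 1.51 (SE 0.21, adjusted p = 5.4e-05) in combination and 1.24 (SE 0.21, adjusted p = 0.00029) in Wnt-C59 against syngeneic skin, and Wnt7b was 1.11 (SE 0.27, adjusted p = 0.0034) and 1.61 (SE 0.28, adjusted p = 0.00031). Lower in treated than in syngeneic skin were Wnt5a, at -2.16 (SE 0.37, adjusted p = 0.00031) in combination and -2.76 (SE 0.38, adjusted p = 7.7e-05) in Wnt-C59 skin, and Wnt10b, at -1.89 (SE 0.56, adjusted p = 0.012) and -2.58 (SE 0.58, adjusted p = 0.0023). Without combination libraries 4 and 5 the values in combination skin were -3.23 for Wnt5a and -3.59 for Wnt10b. Wnt11 was -0.24 (SE 0.52, adjusted p = 0.72) in combination and -2.26 (SE 0.54, adjusted p = 0.0037) in Wnt-C59 against syngeneic skin. In combination skin it was called lower without library 4 (-1.3, adjusted p = 0.0018) and without libraries 4 and 5 (-1.78, adjusted p = 8e-05). With the GC trend removed, 3 members were higher and 16 lower in combination skin, and 5 were higher and 17 lower in Wnt-C59 skin, where 44.4% of all tested genes were called in combination skin (21% up, 23.5% down) and 45.5% in Wnt-C59 skin (21% up, 24.5% down). The rise of Wnt7b in combination skin was then no longer called (0.49, adjusted p = 0.15).

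**Figure D4:**
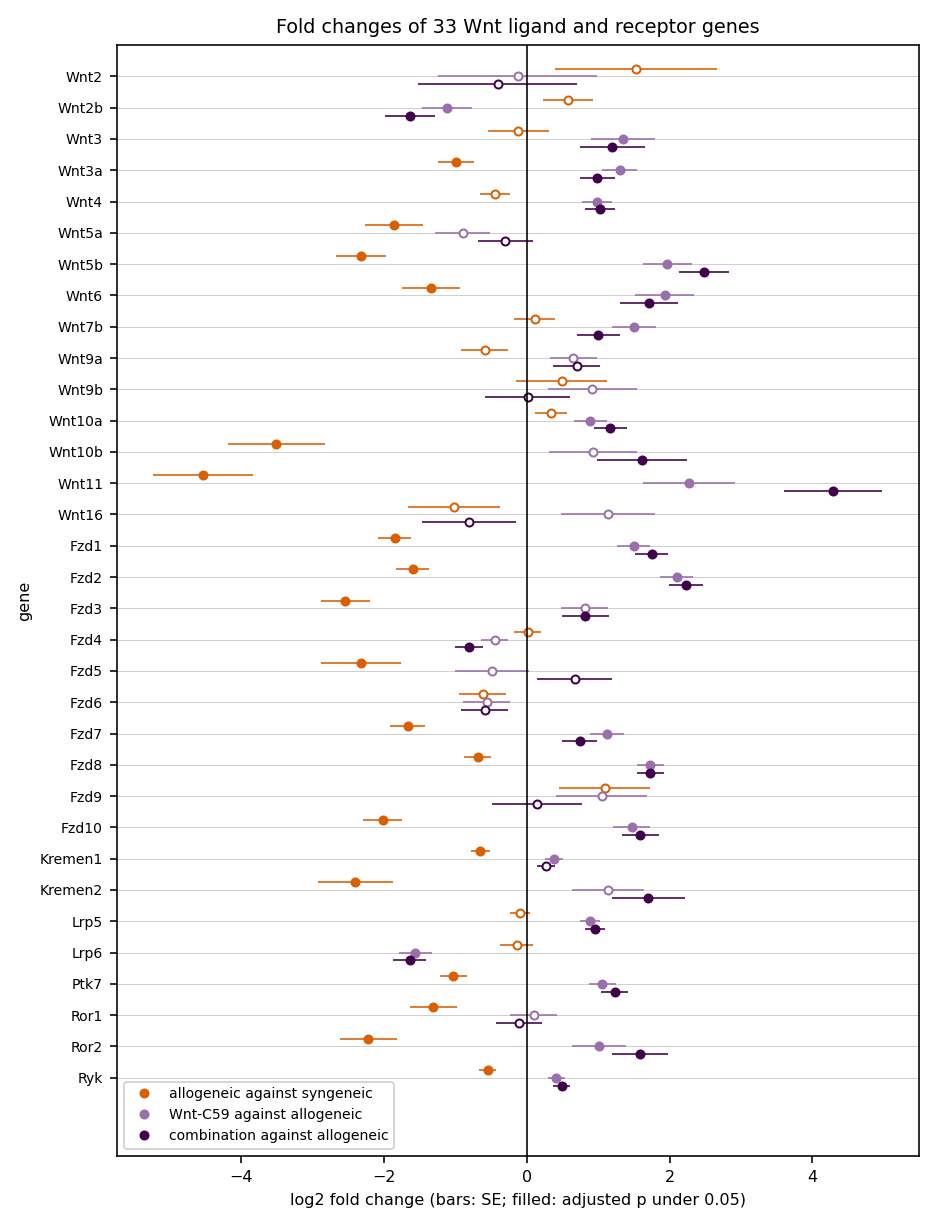
Log2 fold changes of 33 genes with their SE in allogeneic against syngeneic, combination against allogeneic and Wnt-C59 against allogeneic skin, with filled symbols where the adjusted p was under 0.05. Wnt8a is left out because it had no count in allogeneic skin. Most genes lie left of 0 in allogeneic skin and right of 0 in both treated groups, while Lrp6 and Wnt2b lie left of 0 in the treated groups.

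The transcripts of the members were richer in GC than most, with a median of 55.6% against 49.7% over the tested genes. Across the 34 members the Spearman correlation of GC content with the log2 fold change was 0.06 in allogeneic against syngeneic skin, 0.5 in combination against allogeneic skin and 0.49 in Wnt-C59 against allogeneic skin. Over 18227 genes it was -0.1, 0.54 and 0.5. These are descriptions across genes of the same libraries. With the trend removed across all genes, Fzd1, Fzd2, Fzd8, Fzd10, Lrp5, Ryk and Wnt5b were still called higher, and Lrp6 and Wnt2b lower, in both treated groups than in allogeneic skin. In allogeneic against syngeneic skin 19 members then fell, and Wnt10a was called higher. Whether the trend belongs to treatment or to the libraries cannot be told apart.

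**Figure D5:**
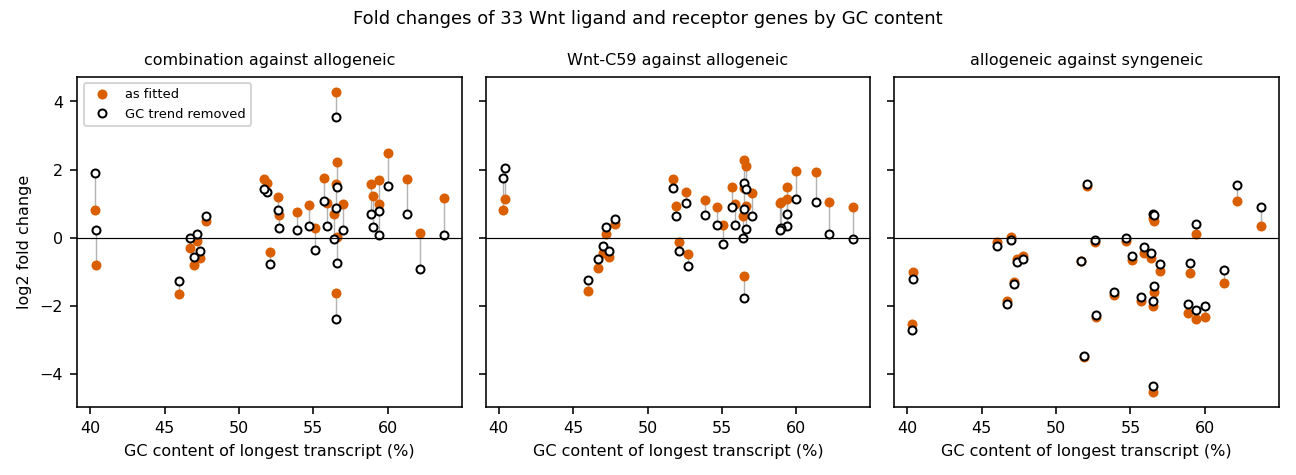
Log2 fold change of 33 genes against the GC content of their longest transcript (percent), as fitted (filled) and with the GC trend over all genes removed (open), in a panel for each comparison. Lines join the values of a gene. In the treated comparisons they are long for GC-rich genes, where most fitted rises shrink, and for the GC-poor Fzd3 and Wnt16, whose values go up. They are short in allogeneic against syngeneic skin.

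Other genes of the pathway were counted from lists chosen with earlier results of these data known, with edgeR and all libraries. These counts were not repeated with the GC trend removed or without combination libraries 4 and 5. Each count is to be read against the share of all tested genes called. In allogeneic against syngeneic skin 14.6% rose and 15.1% fell. In combination against allogeneic skin 27.1% rose and 27.4% fell, and in Wnt-C59 against allogeneic skin 24.6% rose and 26.2% fell. Against syngeneic skin 26.9% rose and 27.2% fell in combination skin, and 26% rose and 27% fell in Wnt-C59 skin. The lists share genes, among them Lgr5, Rnf43, Znrf3, Lef1, Tcf7, Axin2, Notum and Apcdd1, so their counts overlap. Of 9 R-spondins, their Lgr receptors and the ligases Rnf43 and Znrf3 that remove Frizzleds from the membrane, 8 fell and 0 rose in allogeneic skin, with a median log2 fold change of -1.88. In combination and in Wnt-C59 against allogeneic skin 4 of the 9 rose and 1 fell, with medians of 0.8 and 1.01. In each treated group against syngeneic skin 0 rose and 6 fell, with medians of -1.64 in combination and -1.06 in Wnt-C59 skin. Lgr4, a receptor for R-spondins, averaged 22.1 ± 3.48 CPM in allogeneic and 86.9 ± 18.9 CPM in syngeneic skin (SD), a change of -1.97 (SE 0.3, adjusted p = 0.00029). Rnf43 averaged 21.0 ± 5.25 CPM in combination skin, 24.3 ± 4.15 CPM in Wnt-C59 skin and 12.1 ± 1.33 CPM in allogeneic skin, with changes of 0.8 (adjusted p = 0.0045) and 1.01 (adjusted p = 0.001). The other ligase, Znrf3, was called lower in both treated groups than in allogeneic skin. Both ligases were called lower in both treated groups than in syngeneic skin.

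Of 15 beta-catenin target genes 14 were tested, and 10 fell and 0 rose in allogeneic skin, with a median of -1.44. In combination against allogeneic skin 7 rose and 1 fell (median 1.13), and in Wnt-C59 against allogeneic skin 5 rose and 1 fell (median 0.75). Of all tested genes 27.1% and 24.6% rose there, and 54.5% and 50.8% were called in either direction. Against syngeneic skin 1 rose and 10 fell in combination skin (median -0.76) and 0 rose and 7 fell in Wnt-C59 skin (median -0.72). Of all tested genes 27.2% and 27% fell in these comparisons. Nkd1, an inhibitor induced by the pathway, averaged 17.7 ± 2.42 CPM in combination skin, 23.9 ± 3.58 CPM in Wnt-C59 skin and 7.51 ± 2.73 CPM in allogeneic skin, with changes of 1.24 (adjusted p = 0.0011) and 1.67 (adjusted p = 0.00016). Axin2, a widely used readout of the pathway, had 19.7, 21.2, 18.0 and 33.9 CPM in combination skin, 71.0, 80.3, 31.4 and 24.9 in Wnt-C59 skin, 20.2, 38.8 and 35.6 in allogeneic skin and 65.8, 60.3, 43.0 and 57.6 in syngeneic skin. The combination and allogeneic libraries were below all syngeneic ones, and those of Wnt-C59 skin overlapped the other groups. Axin2 was called lower in combination than in syngeneic skin, at -1.29 (SE 0.35, adjusted p = 0.0072), and was -0.13 in Wnt-C59 against syngeneic skin (adjusted p = 0.77). It was called in none of the comparisons with allogeneic skin or between the treated groups, with adjusted p of 0.11 to 0.34. Lef1, which encodes a transcription factor of the hair matrix, had 2.37, 2.55, 26.3 and 26.2 CPM in combination skin, 2.71 to 5.95 in Wnt-C59 skin, 3.89 to 5.64 in allogeneic skin and 45.8 to 68.1 in syngeneic skin. The split of the combination libraries for Lef1 was the same as for the hair matrix and hair shaft markers.

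Among 7 genes of Wnt lipidation and secretion, 2 rose and 2 fell in allogeneic skin. In combination skin 2 rose and 3 fell, and in Wnt-C59 skin 1 rose and 4 fell, with medians of -0.69 and -0.58, where 54.5% and 50.8% of all tested genes were called in either direction. Porcn, which encodes the target of Wnt-C59, had 22.0, 24.0, 34.8 and 22.4 CPM in combination skin, 29.6, 13.2, 17.2 and 22.2 in Wnt-C59 skin, 51.8, 18.9 and 54.1 in allogeneic skin and 14.7 to 21.8 in syngeneic skin. Allogeneic library 2 stood apart from the other 2 at the syngeneic level. Porcn was 1.3 (adjusted p = 0.0089) in allogeneic against syngeneic skin, -0.69 (adjusted p = 0.091) in combination and -1.01 (adjusted p = 0.019) in Wnt-C59 against allogeneic skin.

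Of 14 secreted antagonists 10 were tested, and Wif1, Sfrp1 and Sostdc1 fell and 0 rose in allogeneic skin. In combination against allogeneic skin 4 rose and 0 fell, and in Wnt-C59 skin 3 rose and 0 fell. Wif1, which binds Wnt ligands directly, averaged 27.7 ± 11.5 CPM in combination skin, 20.7 ± 3.47 CPM in Wnt-C59 skin, 8.08 ± 4.75 CPM in allogeneic skin and 39.1 ± 4.12 CPM in syngeneic skin. Of 20 genes of the beta-catenin core machinery, 6 fell and 0 rose in allogeneic skin. In combination skin 7 rose and 5 fell, and in Wnt-C59 skin 7 rose and 3 fell, again where 54.5% and 50.8% of all tested genes were called. Tcf7l1, a transcription factor of follicle stem cells, averaged 41.0 ± 11.3 CPM in combination skin, 38.1 ± 8.33 in Wnt-C59 skin, 7.46 ± 1.13 in allogeneic skin and 23.2 ± 1.38 in syngeneic skin. Of 14 genes of tissue polarity, 8 fell and 0 rose in allogeneic skin, and 4 rose and 3 fell in each treated group against allogeneic skin, beside the same all-gene shares. Of 12 further co-receptors and membrane regulators of Wnt signals, 5 fell and 1 rose in allogeneic skin, and 7 rose and 1 fell in combination and 6 rose and 1 fell in Wnt-C59 skin. Between combination and Wnt-C59 skin 0 genes of these lists were called by edgeR.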

How the data were processed

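Skin RNA of 15 samples in 4 groups was sequenced. The authors deposited a table of expected counts (estimated counts with fractions, not scaled to library size) per versioned Ensembl gene, as the file headers show. HISAT2, featureCounts, Trim Galore and FastQC are the tools listed, with genome build GRCm39, per the submitters' processing notes. Their versions, the annotation and the strand setting are not given in the sources used here, so reads of overlapping antisense genes cannot be told apart. The labels number the samples of a group without naming mice, so p-values measure the spread between these samples, which may be technical.

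Symbols came from the identifiers through GENCODE M21 (51276 of 56059 genes, 91.5%), which is of build GRCm38 and was used also for transcript GC content and length. Promoters are from RefSeq for GRCm38.p6.

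The design had assumed whole counts. The estimated counts were rounded, scaled by TMM, filtered by filterByExpr and tested with edgeR 4.0.16 in R 4.3.3 (quasi-likelihood, robust, all 15 libraries, group as the only term), with Benjamini-Hochberg adjustment over 18651 genes. The script was tested on simulated data. Intervals used the SE and 11 residual degrees of freedom. Alternatives were DESeq2 1.42.0, limma-voom (limma 3.58.1), upper-quartile scaling, no filter, only the 2 groups compared, a GC trend removed, a replicate block and leaving out libraries.

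Values per library are given for the 28 members called in at least 1 of the 4 main comparisons. In the other pathway lists the rule took at most 3 called genes per list and comparison, and Porcn, Axin2 and Lef1. The members and lists were chosen with earlier results of these data known.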

Additional observations from a re-analysis of the deposited data

Results flagged for a closer look

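Within groups of 4 libraries, 3 values stood far from the others of their group, of 102 groups of values tested, where chance alone flags about 1 in 20. Wnt7b was 118 CPM in combination library 5, and the other combination libraries had 76.7 to 81.0 CPM. Fzd10 was 66.9 CPM in Wnt-C59 library 1, and the others of that group had 49.4 to 52.1 CPM. Ror1 was 6.38 CPM in combination library 5, and the other combination libraries had 3.1 to 3.62 CPM. Groups of 3, the allogeneic libraries, were not tested this way.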

How the results depend on the processing

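Each comparison was recomputed under the alternatives, of which only leaving out combination libraries 4 and 5 was chosen after the data were seen. Over the members' fold changes and the counts of members, 14 of 20 calls in allogeneic against syngeneic skin held in every setting run, 11 of 24 in combination and 9 of 20 in Wnt-C59 against allogeneic skin. In allogeneic against syngeneic skin, 1 member rose without the filter (Wnt7a) and 1 with the GC trend removed (Wnt10a), and 0 to 1 did when a library was left out. With the GC trend removed the members that rose were 11 in Wnt-C59 and 9 in combination skin against allogeneic skin, and 5 and 3 against syngeneic skin. Among members called with or without that trend, the sign turned for Kremen1 (-0.18 in Wnt-C59, -0.37 in combination skin) and Wnt10a (-0.05 in Wnt-C59 skin). Of these changes, only that of Kremen1 in combination skin was then called. DESeq2 and the fit of only the 2 groups each gave 4 members lower in Wnt-C59 than in allogeneic skin. Without combination libraries 4 and 5, 13 members rose and 6 fell against allogeneic skin, and Wnt10b (-0.12) and Fzd5 (-0.8) turned negative. With a library left out, Wnt2 ranged from -0.97 to 2.94 in combination and from -0.96 to 3.21 in Wnt-C59 skin against allogeneic skin, with the highest values without allogeneic library 2.

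Between combination and Wnt-C59 skin the count over all genes, 43, became 1506 with DESeq2 (1 member up, 1 down), 65 with limma-voom, 18 with only these groups, 67 with the GC trend removed, 380 without combination libraries 4 and 5 and 1 to 45 with a library left out, while 0 members were called in the settings other than DESeq2. Members higher in Wnt-C59 than in syngeneic skin numbered 5 to 8 with a library left out. The causes were not tested.

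Equal numbers of allogeneic and syngeneic libraries did not pair them: the correlations of same-numbered deviations were -0.048, -0.143 and 0.008. With a replicate block, 2968 genes were called and 15 members fell, and 3074 genes, 1 member up and 14 down, with the block and the GC trend removed, in fits with fewer libraries. No paired analysis was possible because the columns of treated libraries do not carry the numbers of the sample titles.

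Wnt8a, Wnt9b and Wnt16 rest on few counts, and 3 allogeneic libraries limit every comparison with that group.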
